A study of Mus musculus with 2 samples.

Results

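Of the 18498 rows in the deposited expression table, 455 carried no gene name and an identifier that began with FAR, and these transcribed regions without an assigned gene are described here. They were taken from the table by that prefix alone, with no value used, and each has a position on the mouse genome (NCBI37/mm9), a length and an expression value in 2 tissues of the tongue. The first tissue was the circumvallate papillae (CvP), the trench-like structures at the back of the tongue that hold many taste buds. The second was tongue epithelium with no papillae (Epi). Both came from male C57BL/6J mice aged 12 to 30 weeks with no stated genetic change or treatment, fed normal chow. RNA of at least 20 mice was pooled for each tissue and made into 1 library, so there was no replicate, and every difference below is one between 2 libraries. Ratios are given with 95% exact binomial (Clopper-Pearson) intervals from estimated reads. These intervals cover counting error only, and no spread between animals could be measured.

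Expression was given as RPKM, the reads per kilobase of a row's length per 1000000 mapped reads. RNA sequencing finds transcripts that a gene list lacks. ERANGE, the software named for these data, gathers reads that fall outside gene models into candidate regions, so the choice of regions is not independent of where reads were mapped, although 2 of the listed regions were at 0 in both libraries. Such a region can be an exon of a gene missing from the list, a distant exon of a listed gene, a non-coding transcript, or a copy of another gene's mRNA that was inserted back into the genome (a processed pseudogene). The distance at which a region was kept apart from a gene is not given in the sources used here. In the table, no region lay closer than 20044 bases to a row with a gene symbol.

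The labelled tissues were first checked in the named rows. All 13 genes of a list of taste-tissue markers were higher in CvP, with summed RPKM of 567.9 in CvP and 6.36 in Epi. Of 12 listed genes of keratinized epithelium, the 11 with a row summed to 39746 in CvP and 100488 in Epi, and 2 were higher in CvP. Other lists also moved between the libraries. All 7 immune genes were higher in CvP (sums 205.4 and 21.6), the 8 salivary gland genes with a row summed to 24.1 and 408.5 with 4 of them higher in CvP, the 6 skeletal muscle genes to 2.62 and 38.8, and the 4 fibroblast genes to 26.2 and 128.2, with 0 higher in CvP in both of these lists. The 4 nerve and glia genes summed to 11.4 and 9.24 with all 4 higher in CvP, and the 3 endothelial genes to 0.34 and 0.2 with 2 higher in CvP. The part of these cell types in the values of the regions was not tested, and in bulk RNA fewer cells of a type cannot be told apart from less RNA per cell. The step between the lowest RPKM values put the depth at 28.4 M mapped reads for CvP and 27.9 M for Epi (M, 1000000 reads).

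The sequences that carry the main results are given here, 5′ to 3′, read from the NCBI37/mm9 genome. The first pair is shown because FAR280 was the region with the highest level in either library. Its coding bases (chr3:92092510-92092758, plus strand) are those of *Sprr2a3*, and they are set beside those of *Sprr2a1* (chr3:92023014-92023262, plus strand), which has a row of its own. Capitals mark the 3 bases of 249 at which these genes differ.
FAR280, *Sprr2a3*: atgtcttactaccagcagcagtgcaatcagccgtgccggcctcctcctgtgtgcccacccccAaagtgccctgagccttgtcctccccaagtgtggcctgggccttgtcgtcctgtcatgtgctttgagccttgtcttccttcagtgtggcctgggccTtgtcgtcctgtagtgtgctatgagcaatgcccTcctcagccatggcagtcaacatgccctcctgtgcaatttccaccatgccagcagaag
*Sprr2a1*: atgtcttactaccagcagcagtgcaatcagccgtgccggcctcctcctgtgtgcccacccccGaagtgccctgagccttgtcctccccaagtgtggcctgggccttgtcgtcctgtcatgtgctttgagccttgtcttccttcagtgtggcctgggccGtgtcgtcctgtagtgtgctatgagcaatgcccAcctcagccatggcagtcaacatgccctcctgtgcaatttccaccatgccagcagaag

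The next sequences are from the regions with the most one-sided levels among those past an RPKM of 10. FAR26 spans all 3 coding exons (456 coding bases) of *Rgs21*, and its middle coding exon is shown on the minus strand (chr1:146383930-146384156) with 30 intron bases on each side, the exon in capitals. FAR27 has no annotated gene, and the 300 bases around its middle are shown on the plus strand (chr1:146414512-146414811). FAR283 covers exons of *Flg*, whose first coding exon is shown in capitals with 30 bases of the following intron (chr3:93081495-93081662, plus strand).
FAR26, *Rgs21*: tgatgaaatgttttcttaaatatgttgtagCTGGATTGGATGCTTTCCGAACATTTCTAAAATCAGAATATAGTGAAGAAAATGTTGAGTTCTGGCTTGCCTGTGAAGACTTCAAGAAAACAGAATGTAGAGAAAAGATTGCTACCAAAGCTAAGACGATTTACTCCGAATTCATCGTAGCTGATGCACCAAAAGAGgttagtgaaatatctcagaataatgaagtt
FAR27: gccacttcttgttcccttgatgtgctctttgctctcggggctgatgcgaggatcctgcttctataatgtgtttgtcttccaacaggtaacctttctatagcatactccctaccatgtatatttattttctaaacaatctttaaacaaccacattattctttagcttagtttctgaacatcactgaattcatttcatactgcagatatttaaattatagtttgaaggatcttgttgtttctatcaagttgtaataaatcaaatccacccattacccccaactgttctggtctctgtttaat
FAR283, *Flg*: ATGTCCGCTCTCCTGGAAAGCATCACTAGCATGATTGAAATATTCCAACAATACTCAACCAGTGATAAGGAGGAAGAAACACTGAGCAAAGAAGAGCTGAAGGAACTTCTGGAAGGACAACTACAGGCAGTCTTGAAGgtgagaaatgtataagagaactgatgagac

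The last set shows what a copied transcript looks like. FAR447 (chrX:12780646-12780816, plus strand) matches the mRNA of *Rpl3* at 171 of 171 bases, and FAR92 (chr13:3298132-3298286, plus strand) matches that of *Rps4x* at 155 of 155. In both, capitals mark the 4 bases on each side of places where exons of the gene are joined, or as many of them as the region holds. Beside each stands the gene itself at the inner of these joints, with 50 exon bases in capitals and 30 intron bases (*Rpl3* at chr15:79908731-79908810 and *Rps4x* at chrX:99383603-99383682, both minus strand). The intron at the joint, of 224 bases in *Rpl3* and 291 in *Rps4x*, is absent from the region. These 4 sequences were chosen after their values were seen.
FAR447: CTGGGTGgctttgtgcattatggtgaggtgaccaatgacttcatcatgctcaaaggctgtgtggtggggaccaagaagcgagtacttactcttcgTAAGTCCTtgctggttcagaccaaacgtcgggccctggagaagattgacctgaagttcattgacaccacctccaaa
*Rpl3*: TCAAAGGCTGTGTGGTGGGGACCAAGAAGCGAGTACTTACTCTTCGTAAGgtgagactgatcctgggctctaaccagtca
FAR92: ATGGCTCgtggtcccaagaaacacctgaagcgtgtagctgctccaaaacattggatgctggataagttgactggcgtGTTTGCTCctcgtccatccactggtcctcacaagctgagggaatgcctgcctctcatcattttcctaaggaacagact
*Rps4x*: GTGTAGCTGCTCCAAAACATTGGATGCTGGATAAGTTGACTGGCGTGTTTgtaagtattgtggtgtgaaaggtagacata

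The regions were short and weakly expressed. They lay on 20 chromosomes, with the most on chromosome 1 (41), chromosome 3 (37) and chromosome 6 (33) and the fewest on chromosome 15 (10). Their listed length ranged from 0.152 kb to 22.99 kb with a median of 0.681 kb. In 287 regions the length equalled the distance from start to end. In the other 168 it was shorter, with a median of 43.3% of a span whose median was 5.96 kb, so that reads were counted over part of the span.

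The median RPKM was 1.18 in CvP and 0.65 in Epi, against 3.93 and 2.03 for the named rows. An RPKM above 10 in either library was reached by 47 regions (10.3%) and by 31.5% of the named rows. Epi was listed at 0 for 84 regions (18.5%; named rows 11.8%) and CvP for 3 regions (0.659%; named rows 4.94%), the latter including the 2 at 0 in both. All regions together held 1.24% of the summed RPKM in CvP and 0.799% in Epi. FAR280 alone made up 32.8% of the reads estimated for the regions in CvP.

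Levels of the regions were spread more widely between the tissues than those of named genes. In 296 regions the higher of the 2 RPKM values was 1 or more. Of these, 190 were higher in CvP and 106 in Epi, so that 64.2% were higher in CvP, as were 78.5% of the named rows. The median log2 CvP/Epi ratio, with 0.1 added to each RPKM, was 0.38 for the regions and 0.51 for the named rows. The middle 50% of the regions ran from −0.41 to 2.41, and that of the named rows from 0.07 to 1.07. The median ratio of all rows with an RPKM of at least 1 in both libraries was 1.31 (0.39 on the log2 scale), and relative to it the median of the regions was −0.013.

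A region was called higher in 1 tissue when its RPKM there was at least 1 and over 3 times that in the other. In CvP, 90 of the 296 regions (30.4%) were called, against 15.9% of the 12549 rows with an RPKM of 1 or more. In Epi, 25 (8.45%) were called, against 1.96%. Low levels were called in CvP more often than high ones in either set. The part of level in the difference between 30.4% and 15.9% was not tested. Among rows with the higher RPKM between 1 and 2, 43.31% of 127 regions and 36.93% of 1289 named rows were called in CvP. The shares called in Epi were 11.02% of these regions and 2.87% of these named rows. Among rows with the higher RPKM between 2 and 5, 34.5% of 87 regions and 25.4% of 2581 named rows were called in CvP, and 9.2% and 1.67% in Epi. Between 5 and 10, 5.71% of 35 regions and 12.8% of 2688 named rows were called in CvP, and 5.71% and 1.15% in Epi. From 10 upward, the shares were 6.38% of 47 regions and 7.59% of 5695 named rows in CvP, and 2.13% and 1.93% in Epi. The regions called in CvP were mostly faint, since 85 of the 90 stayed under an RPKM of 5, and 44 were at 0 in Epi. Their interval lay above 1 in all 90 and above 3 in 66. For the 25 called in Epi, 22 stayed under 5, the interval excluded 1 in 24, and it lay past 3-fold in 9.

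A stricter call asked for an RPKM above 10 in the higher tissue with the same ratio. It was met in CvP by 3 regions (0.659%), FAR280, FAR26 and FAR27, against 2.35% of all rows, and in Epi by 1 region (0.22%), FAR283, against 0.6%.

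**Figure D1:**
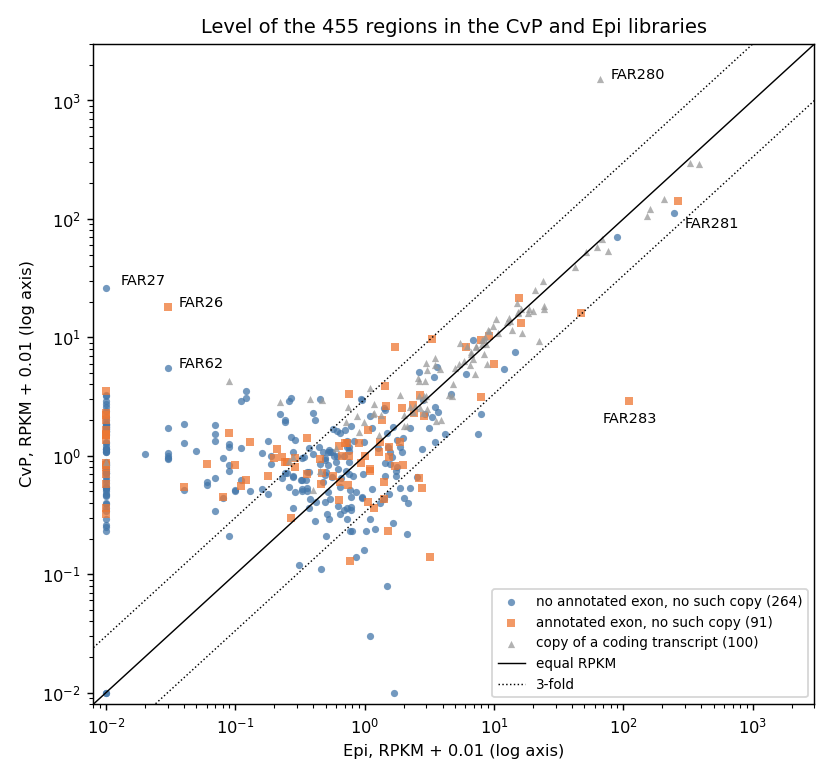
RPKM of the 455 regions in Epi (x) and CvP (y), each with 0.01 added and on log axes, coloured by whether a region is a copy of a coding transcript elsewhere, lies in an annotated exon, or neither. Most grey copies follow the line of equal RPKM, with FAR280 and fainter copies such as FAR118 far above it. The column at the left edge holds the 84 regions at 0 in Epi, and FAR26, FAR27 and FAR283 lie far outside the dotted 3-fold lines.

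The annotation of the same genome build (GENCODE M1) put genes in places where the table had none. An annotated exon was overlapped by 161 regions (35.4%): for 68 it was mainly that of a protein-coding gene, for 59 that of a pseudogene and for 34 that of another kind of gene. A further 21 regions lay in introns, and 273 (60%) overlapped no annotated gene. Of the 161 regions, 128 lay in exons of genes with no row near them in the table and 33 in exons of genes that had one.

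The classes differed in how their levels were split, and also in the levels themselves. Since low levels were called in CvP more often, class could not be told apart from level here. Among regions with an RPKM of at least 1, the median RPKM of the 54 in pseudogene exons was 7.89 in CvP and 6.38 in Epi, and 2 were called in CvP and 1 in Epi. For the 166 with no gene the medians were 1.69 and 0.93, and 68 (40.96%) were called in CvP and 16 (9.64%) in Epi. The 55 in protein-coding exons had medians of 2.66 and 1.97, with 15 called in CvP and 5 in Epi. The 14 in other exons gave 3 calls in CvP and 1 in Epi, and the 7 in introns 2 in each tissue. The median G+C content ranged from 44.8% for introns to 49.4% for protein-coding exons, with 45.3% for regions with no gene.

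**Figure D2:**
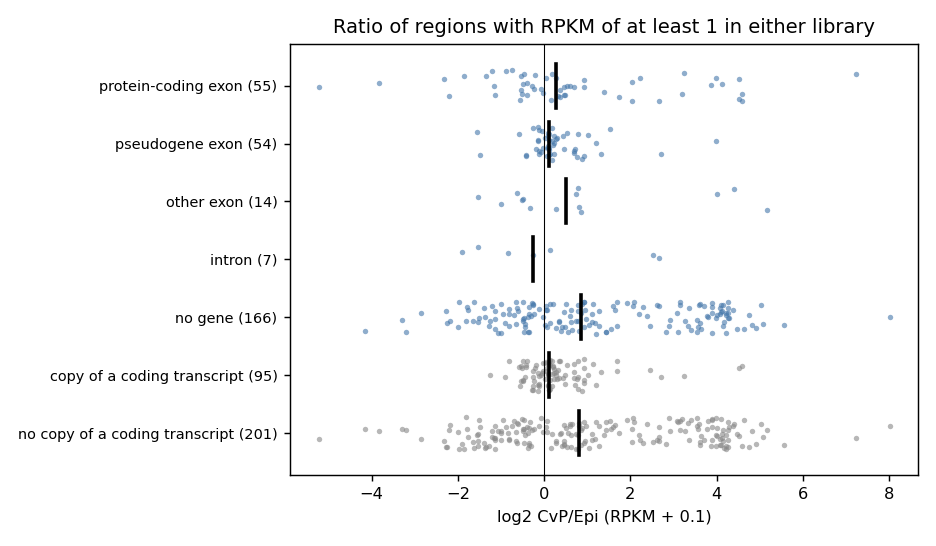
Log2 CvP/Epi ratio (RPKM + 0.1) of the regions whose higher RPKM is 1 or more, by annotation class (blue) and by whether the region is a copy of a coding transcript (grey), with the number in brackets and a black bar at the median. The 54 regions in pseudogene exons and the 95 copies mostly sit close to 0, while many of the 166 regions with no gene lie above 3.

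The highest region was *Sprr2a3*, a gene for a small proline-rich protein of the cornified envelope, the cross-linked layer beneath the membrane of keratinizing cells. FAR280 (chr3:92092143-92093057) had an RPKM of 1516 in CvP and 65.97 in Epi, a ratio of 23.0 (21.9 to 24.2). The named copies *Sprr2a1* and *Sprr2a2* gave 179.1 and 10.13, and 260.2 and 14.73, ratios of 17.7 for both. In all, 98.8% of the coding bases of *Sprr2a3* and *Sprr2a1* are the same, as the sequences above show, and 21.0% of the 75-base windows of FAR280, the length of a read, occur elsewhere in the genome. How reads that match several places were assigned is not given in the sources used here, so the division of reads among these genes is uncertain. All 3 were higher in CvP, whereas *Sprr2b*, the named gene nearest to FAR280 at 27.6 kb, had 4.78 and 5.95.

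FAR280 was 1 of 5 regions whose nearest named gene has a symbol on the list used here for epidermal differentiation genes. The epidermal differentiation complex is the cluster of cornified envelope genes on chromosome 3. The other four were higher in Epi. FAR283 (chr3:93081475-93097648) overlapped exons of *Flg*, the gene for filaggrin, a protein that bundles keratin filaments, and a pseudogene, Rplp0-ps1. Its RPKM was 2.87 in CvP and 111.3 in Epi, so that Epi was 38.8 times higher (34.9 to 43.2). The nearest named gene, *Hrnr* (hornerin, a filaggrin relative), stood at 339.4 in CvP and 1754 in Epi. Of the windows of FAR283, 68.2% occurred more than once in the genome, as filaggrin is built of repeats.

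FAR282 (chr3:92770925-92772499) overlapped 2310001H18Rik, which RefSeq names *Lce3e*, a late cornified envelope gene. It had 142.9 RPKM in CvP and 264.2 in Epi, with Epi 1.85 times higher (1.79 to 1.91). Its neighbour *Lce3c*, 21.3 kb away, had 608.8 and 1570. FAR281 (chr3:92336101-92349039) overlapped no annotated gene. It lay 25.8 kb from *Ivl* (involucrin, another envelope protein) and had 111.2 RPKM in CvP and 247.0 in Epi, with Epi 2.22 times higher (2.18 to 2.26). *Ivl* itself had 23.87 and 20.82, so FAR281 was above its neighbour in both libraries. FAR279 was faint, at 0.22 and 0.79. FAR278, in the same interval as FAR279 and nearest to *Lelp1*, whose symbol is not on the list, had 1.72 and 2.24. In this gene cluster the regions thus ran in both directions, with FAR280 the only one of the 6 that was higher in CvP.

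The other 2 regions past the stricter call in CvP lay together on chromosome 1, between *Rgs1* and *Rgs18*. FAR26 (chr1:146362610-146392596) covered *Rgs21*, a regulator of G protein signalling known from taste cells, which had no row in the table. Its RPKM was 18.03 in CvP and 0.02 in Epi, from about 2123 and 2 reads, a ratio of 902 (289 to 8626). FAR27 (chr1:146414485-146414838), 26043 bases from *Rgs21* on the side of its 5′ end (the gene is on the minus strand), had 25.86 in CvP and 0 in Epi, with about 259 reads against none. Against a floor of 3 reads in the Epi library, it was at least 84.9-fold higher in CvP. FAR28, farther along the same interval, had 1.83 and 0 and was at least 16.04-fold higher. The genes on either side, both also regulators of G protein signalling, were near 0: *Rgs1* had 0.21 in CvP and 0 in Epi, and *Rgs18* 0.09 and 0.17. In the RefSeq gene order of GRCm38, 2 genes lie between them, *Rgs21* and Gm7266. All 3 regions in the interval were therefore higher in CvP, 2 of them above an RPKM of 10 and FAR28 faint, and all were at or near 0 in Epi, while both named neighbours were near 0 in both libraries.

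A longer run of regions lay on the same chromosome as the *Sprr* genes, in the interval between *Tbl1xr1* and *Nlgn1*. It held 8 regions, FAR256 to FAR263, spread over 753.5 kb, more than any other interval between neighbouring named genes. All 8 were higher in CvP, and 6 of the 7 with an RPKM of at least 1 were called. CvP RPKM ranged from 0.64 to 3.08 and Epi RPKM from 0.21 to 0.63. The longest, FAR256 (chr3:23697456-23704037), had 3.08 and 0.26, a ratio of 11.9 (8.87 to 16.5). The lowest was FAR258, with 0.64 and 0.22. The estimated reads of the 8 together gave a ratio of 10.5. *Tbl1xr1*, a transcriptional co-regulator, had 7.3 in CvP and 4.62 in Epi, and *Nlgn1* (neuroligin, a synaptic adhesion protein) 0.04 and 0. In the RefSeq order 12 genes lie between them, among them *Naaladl2*, which had no row under that symbol. Which of these genes the regions belong to was not resolved, since they overlap none in GENCODE M1. The run was singled out after its values were seen.

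**Figure D3:**
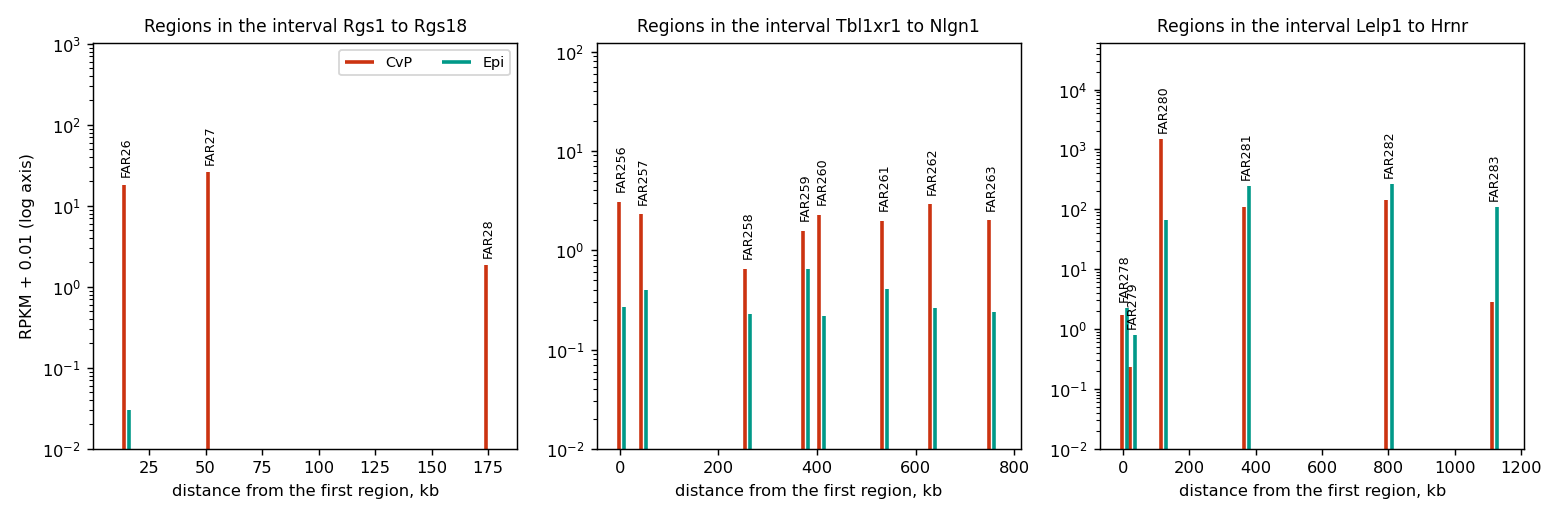
RPKM + 0.01 (log axis) in CvP (red) and Epi (green) of the regions in 3 stretches of named genes, against distance in kb from the start of the first region. In the Rgs1 to Rgs18 and Tbl1xr1 to Nlgn1 intervals every red line exceeds the green one, with FAR27 and FAR28 at 0 in Epi, and from Lelp1 to Hrnr only FAR280 is higher in CvP.

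Most regions stood alone. The 455 regions fell in 373 intervals between neighbouring named genes, of which 313 held 1 region, 46 held 2, 11 held 3 and 3 held more. The other 2 of these, also looked at after their values were seen, lay beside genes of Krüppel-like factors, transcription factors active in epithelia, and their counts by direction differed. Between *Klf5* and *Klf12*, 4 of 5 regions were higher in CvP, but 0 were called in either tissue and 2 reached an RPKM of 1, with FAR134 at 0.83 and 0.08, FAR133 at 1.31 and 0.81, and FAR132 the exception at 0.51 and 1.13. Between *Klf4* and *Actl7b*, all 4 regions were higher in Epi and 2 were called there: FAR298 had 0.07 in CvP and 1.48 in Epi, and FAR297 0.42 and 1.41. *Klf5* had 136.1 and 93.76, *Klf12* 11.35 and 12.83, *Klf4* 163.9 and 255.7, and *Actl7b* was at 0 in both. Within 20 kb of each other lay only 2 pairs of regions, FAR278 with FAR279 and FAR147 with FAR148. The pair FAR147 (1.03 in CvP, 0.39 in Epi) and FAR148 (0.37 and 0.61), near *Mirlet7c-2*, had ratios of 2.64 (1.79 to 3.95) and 0.607 (0.158 to 2.13).

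Regions with at least 20 estimated reads were also ranked by the CvP/Epi ratio of RPKM + 0.1, an order that differs from that of the bounds below. Beside *Rgs21*, the 10 highest in this order had no protein-coding annotation. FAR62 (chr11:31607862-31630312), 36.0 kb from *Bod1*, had 5.53 RPKM in CvP and 0.02 in Epi, from about 799 and 3 reads, a ratio of 277 (89.3 to 1273). *Bod1*, which acts in chromosome alignment at mitosis, had 33.28 and 47.41. FAR82 (chr12:66492494-66518361) had 3.49 and FAR433 (chr9:52570688-52576521) 3.28 in CvP, both with 0 in Epi, and were at least 88.6-fold and 81.9-fold higher. FAR82 overlaps the small nucleolar RNA SNORA17 in 0.483% of its span. FAR406 (chr8:31549960-31552686) had 3.16 and 0 and was at least 59.2-fold higher, 647.4 kb from the nearest named gene, *Dusp26*. FAR201 had 2.4 and 0 and was at least 35.2-fold higher. Each of these was at or near 0 in Epi, and the nearest named gene was 36.0 kb away or farther.

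Some of the CvP regions had neighbours that were themselves higher in CvP. FAR375 (chr6:131513286-131513953) lay 66.0 kb from *Tas2r130*, a bitter taste receptor gene, and was the 1 region whose nearest named gene is a taste receptor. It had 2.9 RPKM in CvP and 0 in Epi (about 55 reads, at least 14.2-fold), beside 3 and 0 for *Tas2r130*. The 300 bases around its middle (chr6:131513470-131513769, plus strand) are shown because no annotated gene covers them.
FAR375: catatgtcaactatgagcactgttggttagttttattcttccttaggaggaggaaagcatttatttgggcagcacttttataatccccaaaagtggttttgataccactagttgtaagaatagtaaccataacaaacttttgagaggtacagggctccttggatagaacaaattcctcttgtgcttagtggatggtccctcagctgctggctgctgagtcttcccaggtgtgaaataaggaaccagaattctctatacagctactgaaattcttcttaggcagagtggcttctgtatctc

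FAR139 (2.72 in CvP and 0 in Epi, at least 28.3-fold) lay 164.2 kb from *Kctd12*, which had 16.66 and 0.4. FAR141 (2.58 and 0, at least 45.9-fold) lay 279.0 kb from *Slitrk6*, a neuronal membrane protein gene, which had 19.77 and 2.03. Several others of this kind were picked after their values were seen. FAR241 (2.01 and 0, at least 65.1-fold) overlaps the non-coding gene 9030622O22Rik, 66.2 kb from *Foxa2*. *Foxa2*, a transcription factor of endodermal epithelia, had 18.84 in CvP and 0.06 in Epi. FAR40 (1.51 and 0, at least 8.85-fold) overlaps Gm17566, which RefSeq names *Prox1os*, a transcript antisense to *Prox1*. *Prox1*, a homeobox transcription factor 45.8 kb away, had 5.91 and 0.02. FAR4 (1.75 and 0, at least 87.2-fold) lay 112.0 kb from *Eya1*, with 7.42 and 0.57. FAR376 (3.04 and 0.11, a ratio of 27.6 from 7.14 to 229) lay 25.4 kb from *Emp1*, an epithelial membrane protein gene with 875 and 145.9. In each of these pairs the region and the gene were both higher in CvP.

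FAR126 (chr14:54398432-54415892) overlapped B230359F08Rik in the T cell receptor alpha locus, where RefSeq lists 96 genes between the flanking named genes. It had 2.18 RPKM in CvP and 0 in Epi (about 91 reads, at least 23.8-fold). This region moved with the immune markers, all 7 of which were higher in CvP. Their part in its level was not tested.

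On the Epi side, FAR283 was followed by faint regions. FAR430 (chr9:43247072-43247863), 102.9 kb from *Trim29*, had 0 RPKM in CvP and 1.67 in Epi (about 37 reads). It was at least 9.7-fold higher in Epi, whereas *Trim29* had 226.6 and 309.8. FAR3 (chr1:10276540-10278285) had 0.02 in CvP and 1.08 in Epi, 54.0 times higher from about 1 and 52 reads (9.08 to 2128). FAR66, in 4930438A08Rik, had 0.13 and 3.19 and was 24.5 times higher (6.4 to 207). FAR298, in the *Klf4* interval, was 21.1 times higher (3.43 to 883) from about 1 and 21 reads. FAR328 (chr5:76814728-76816456) lay 21.9 kb from *Nmu* (neuromedin U, a signalling peptide). It had 0.21 and 2.13, 10.1 times higher in Epi (5.36 to 22.1), beside 15.45 and 78.52 for *Nmu*. FAR55, in 4732465J04Rik, had 0.22 and 1.5 (6.82 times, 5.23 to 8.97). FAR146, near *Pvt1*, had 0.26 and 1.64 (6.31 times, 1.9 to 34.0).

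FAR67, in an exon of *Gas7*, had 0.52 and 2.77 (5.33 times, 2.66 to 11.7), with 17.72 and 36.57 for the gene. The nearest gene did not always follow. Of the 17 regions called in Epi whose nearest gene had an RPKM of 1 or more, 9 had a gene on the same side. Among the 69 such regions called in CvP, 61 did. Over all 217 pairs with both at an RPKM of 1 or more, 171 of the nearest genes were higher in CvP. The gene nearest to FAR66, *Zfp692*, had 27.98 in CvP and 23.42 in Epi. FAR432 had 1.52 in CvP and 7.57 in Epi (4.98 times, 3.02 to 8.64), and 1600029D21Rik, 261.6 kb away, had 29.98 and 1.88. In most of these regions the CvP library had about 10 reads or fewer, and their intervals were wide.

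**Figure D4:**
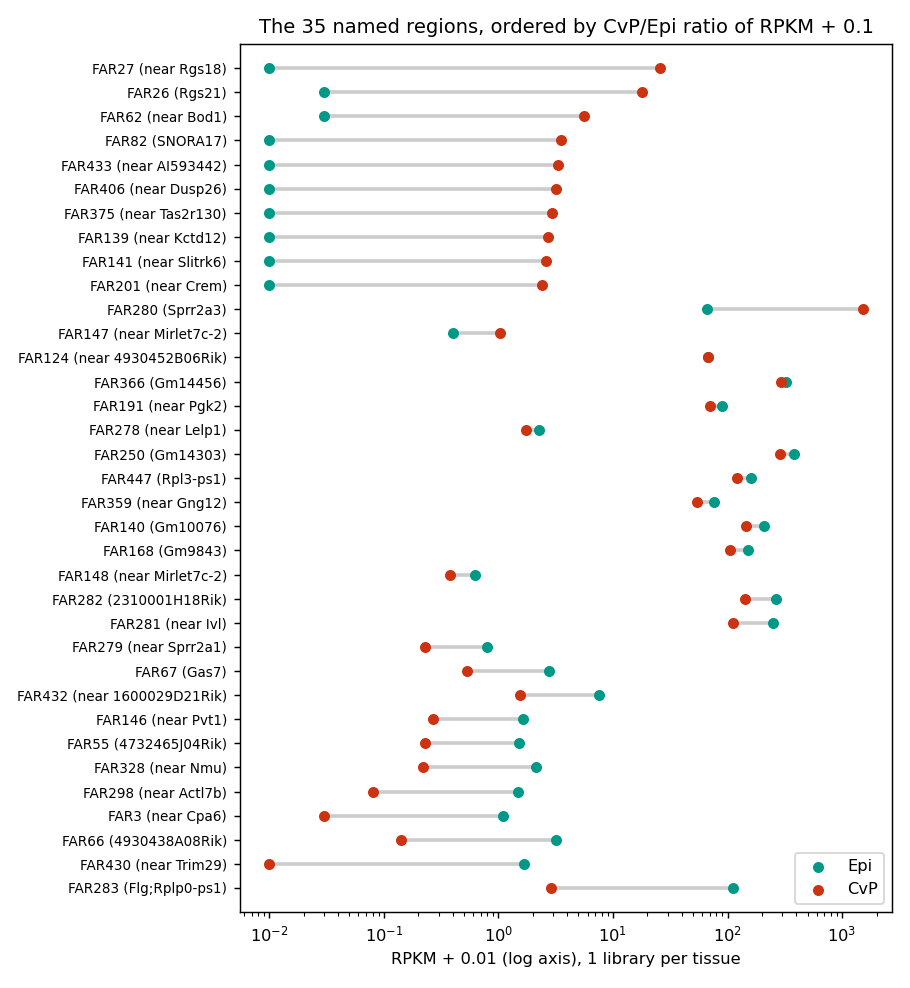
RPKM + 0.01 (log axis) in Epi (green) and CvP (red) of the 35 regions that the naming rule selected, ordered by the CvP/Epi ratio of RPKM + 0.1 with the highest at the top, each with the annotated gene it overlaps or the nearest named gene. FAR280 and the 10 regions above it are higher in CvP, the copies of abundant mRNAs in the middle differ little, and FAR283 at the bottom has 2.87 in CvP and 111.3 in Epi.

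Apart from FAR280 to FAR283, the regions with the highest levels were mostly copies of abundant mRNAs. Among the 10 highest in each tissue, these copies had CvP/Epi ratios from 0.696 (FAR168) to 0.989 (FAR124). Only the interval of FAR124 included 1, and the others were higher in Epi. Of the 455 regions, 178 held a stretch of at least 100 bases that matched a protein-coding transcript from another locus at 90% identity or more. In 100 of them the match covered at least 50% of the region, and these are called copies below. The median identity was 99.5%, and 30 were identical to the transcript over the aligned stretch. Of the 100 copies, 50 lay in annotated pseudogene exons, 19 in exons annotated as protein-coding, 27 in no annotated gene, 3 in introns and 1 in another exon. Only 11 lay on the chromosome of the matched gene.

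FAR250, in Gm14303, was a copy of *Rps29*, for a protein of the small ribosomal subunit. It had 288.6 RPKM in CvP and 383.4 in Epi, a ratio of 0.753 (0.709 to 0.799), while the row of *Rps29* gave 16 and 30.58. FAR366, in Gm14456, was a copy of *Tpt1*, the translationally controlled tumour protein, and had 293.9 and 325.5 (0.903, 0.85 to 0.958), beside 199.7 and 405.7 for *Tpt1*. In these cases the copy was listed above its gene in CvP. FAR447 and *Rpl3*, for a protein of the large subunit, were level, at 120.1 and 160.8 for the region and 128.8 and 145.6 for the gene.

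FAR168, in Gm9843, had 105.1 and 151.1 beside 63.03 and 77.44 for *Fau*, which encodes a ribosomal protein fused to a ubiquitin-like one. FAR359 had 53.74 and 75.44 as a copy of *Rpl23*, and FAR124 had 67.26 and 68 as a copy of *Ptma* (prothymosin). Their genes had 154.2 and 199.4, and 158.9 and 135.6. FAR92 had 17.36 and 24.37 against 356.8 and 543.3 for *Rps4x*. FAR140, in Gm10076, had 146 and 206.4, and the transcript it matched (Gm3699) has no row.

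A region of high level that matched no coding transcript was FAR191 (chr17:39979939-39983921), with 69.9 RPKM in CvP and 88.69 in Epi (0.788, 0.765 to 0.812). It overlapped no gene in GENCODE M1, lay 1127 bases from AY036118 and 360.0 kb from the nearest named gene, *Pgk2*, and had a G+C content of 67.0%.

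The copies mostly had ratios near those of the genes they match. For 93 copies in which both region and gene had an RPKM of at least 1, the log2 CvP/Epi ratios of region and gene differed by 1 or less in 86 (92.5%), with a median absolute difference of 0.25. They were on the same side of equality in 72 (77.4%), many copies being close to 0 on this scale. Across these 93 pairs, Pearson's r was 0.850 and Spearman's rho 0.672. The pairs share the 2 libraries and nearly the same sequence, and they are not independent, so no p-value is given. The gene had the higher CvP RPKM in 85 of the 93, with a median of 3.98 times that of the copy. Of the 95 copies with an RPKM of at least 1, 7 (7.37%) were called in CvP and 0 in Epi, and the median log2 ratio was 0.12. Of the 201 other regions at that level, 83 (41.3%) were called in CvP and 25 (12.4%) in Epi, and their median was 0.80. These other regions were also fainter, with a median CvP RPKM of 1.52 against 6.34 for the copies. The part of level in this difference was not tested.

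All 7 copies that were called matched genes that were also higher in CvP, but the genes were not all as far from equality. FAR5 had 2.96 RPKM in CvP and 0.46 in Epi, while *Rbm6*, the gene it matches, had 17.23 and 10.86. FAR15 had 2.58 and 0.73 beside 8.31 and 6.09 for *Ppm1b*, and FAR320 had 3.73 and 1.08 beside 46.12 and 32.58 for *Pdlim1*. In the others the gene was over 3 times higher in CvP as well. The copies named here were picked after their values were seen. FAR280 was 1 of the 7, as a member of a gene family. FAR118, in Gm5454, matched *Etv1*, an ETS transcription factor, at 97.8% identity. It had 4.26 RPKM in CvP and 0.08 in Epi (53.3, 9.14 to 2136), and *Etv1* had 9.63 and 0.15. FAR61, in Glns-ps1, matched *Glul* (glutamine synthetase) and had 2.98 and 0.37 (8.05, 2.5 to 42.4), and *Glul* had 415.9 and 72.25. FAR253, in Gm9833, was identical to *Myef2* over its aligned stretch, with 2.86 and 0.21, and that gene had 3.32 and 0.5.

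The place of the copies on the matched transcripts was also looked at. A joint between 2 exons of the matched transcript was contained in 95 of the 100 copies, as in the sequences of FAR447 and FAR92 above. A read that spans such a joint is contiguous in the copy but is broken by an intron at the gene. Of all 75-base windows in the aligned part of a copy, a median of 75.6% spanned a joint. Over the whole matched transcripts the median was 31.7%, and the share was higher in the copy in 86 of 100. This sets a part of a transcript against the whole. Regions were gathered from mapped reads, so this share may depend on which windows had a single place in the genome. Of 21 copies no longer than 0.2 kb, 19 held a joint. Of the windows over a joint, 3.7% (736 of 19869) had a second exact place in the genome, against 46.2% (4700 of 10179) of the other aligned windows. A window over a joint has no exact place at the gene itself, where the intron breaks it, so a lower share was built in. These are counts of windows in the genome, not of reads. The share of reads at these copies that came from the mRNA of the matched gene was not tested.

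**Figure D5:**
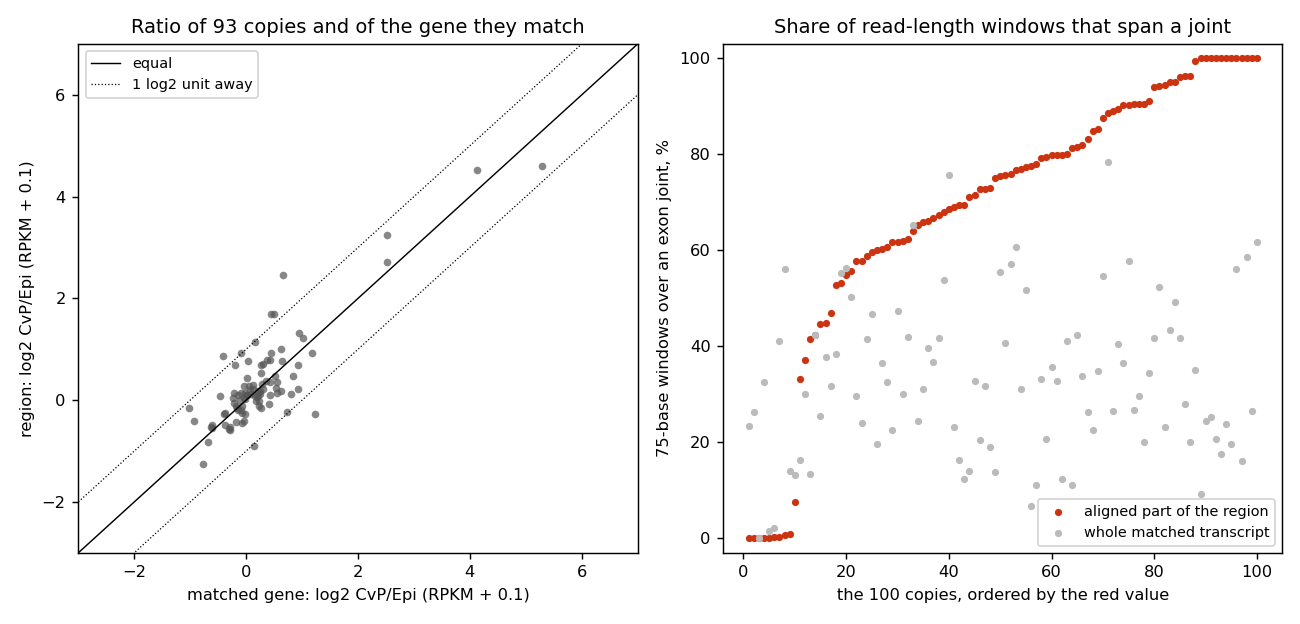
Left, log2 CvP/Epi ratio (RPKM + 0.1) of 93 copies (y) against that of the gene they match (x), with lines for equal values and for 1 log2 unit away. Right, the percentage of 75-base windows over an exon joint in the aligned part of each of the 100 copies (red, in rising order) and in its whole matched transcript (grey): 86 of the 93 points on the left lie within the dotted lines, and the red values exceed the grey ones in 86 of 100.

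The 33 regions in exons of genes that had a row near them lay beyond the part of the gene the table listed. Both region and gene had an RPKM of at least 1 in 22 of these pairs, and the log2 ratios were on the same side in 18 and within 1 of each other in 16. Pearson's r across the 22 was 0.883 and Spearman's rho 0.908, as a description of pairs that share libraries. The gene had the higher CvP RPKM in 20. FAR181, in an exon of *Fndc1* 22.0 kb from its listed end, had 8.24 RPKM in CvP and 1.7 in Epi, beside 43.14 and 6.78 for the gene. FAR195, in *Kcnh8*, a potassium channel gene, had 2.3 and 0, beside 1.11 and 0. FAR89, in *Numb*, an inhibitor of Notch signalling, had 5.91 and 10.05, beside 22.67 and 23.47. In all 3 pairs the log2 ratios of region and gene were less than 1 apart. Of the windows of FAR181, 100% occurred elsewhere in the genome as well. These pairs were also chosen after their values were seen.

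Distance to the nearest named gene had a median of 61.0 kb and a maximum of 1.75 Mb. Within 25 kb lay 68 regions, within 50 kb 197 and within 100 kb 286. Region and nearest gene both had an RPKM of at least 1 in 217 pairs, and both were on the same side of equality in 146 (67.3%). In the same pairs, 171 of the genes and 140 of the regions were higher in CvP. Pearson's r of the log2 ratios was 0.435 and Spearman's rho 0.375. For the 152 regions that were not copies they were 0.557 and 0.511, and for the 65 copies −0.13 and 0.014. Of the 90 regions called in CvP, 69 had a nearest gene with an RPKM of at least 1, and 32 of these genes were called in CvP as well. Of the 25 called in Epi, 17 had such a gene and 3 of these genes were called in Epi. Over all 12549 rows with an RPKM of 1 or more in either library, 15.9% were called in CvP and 1.96% in Epi.

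Gene families were counted by prefixes of the symbol of the nearest named gene, which miss members with other symbols. By these prefixes, 17 regions lay next to zinc finger genes (Zfp), 5 next to epidermal differentiation genes and 1 next to a cytochrome P450. Another 1 lay next to a taste receptor and 1 next to a gene matched by the stefin and cystatin prefixes (FAR227, near *Cstad*). No nearest gene had a prefix used for keratins, serpins, histones (Hist), ribosomal proteins, kallikreins, MHC, Clca, BPI fold, or olfactory or vomeronasal receptors. The histone gene *H2afy*, nearest to FAR104, FAR105 and FAR106, was missed in this way. Of the 17 next to zinc finger genes, 10 had an RPKM of at least 1, with the highest level in FAR438 (9.54 in CvP and 7.86 in Epi), which overlaps Snhg5, the host gene of a small nucleolar RNA.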

How the data were processed

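RNA of the circumvallate papillae and of epithelium without papillae was sequenced by the authors as poly(A)+ TruSeq libraries (75-base single reads), mapped with Bowtie 0.12.7 to NCBI37/mm9, and turned into RPKM with ERANGE. The deposited table holds RPKM per row, with a length, a position and the authors' CvP/Epi ratio, which was not used. Options of ERANGE, the treatment of reads with several places, and any use of strand are not given in the sources used here. Regions carry no strand, so sense and antisense transcripts could not be told apart.

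Depth came from the RPKM step in 163 rows of 0.1 kb, and reads per region from RPKM, length and depth. Both steps were tested on simulated data. Ratios with 0 in 1 library were bounded with a floor of 3 reads there. This bound leaves out counting error in the other library. Log2 ratios used RPKM + 0.1, which understates the change of low regions. Genes were those of GENCODE M1 on the same build. Gene order was taken from RefSeq (GRCm38.p6), for names only. Copies were found with blastn 2.17.0 against GENCODE M1 coding transcripts, and window copies by exact search of the genome on both strands. Intervals used scipy 1.17.1.

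The thresholds of the stricter call follow the study's methods. Named regions were the 10 highest in each tissue, the 10 highest and 10 lowest ratios with at least 20 estimated reads (ranked on RPKM + 0.1), those past the stricter call, and regions within 20 kb of each other. Sequences other than those around the middle of named regions, and regions said to be so, were chosen after their values were seen. The members, lists and rules were chosen with earlier results of these data known. With 1 library per tissue no test was made.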

Additional observations from a re-analysis of the deposited data

How the results depend on the processing

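No paired analysis was possible because only 1 library was made per tissue, and for the same reason no replicate could be left out. Of 44 alternatives over 8 results, 23 stayed within the limits set for a change. The 90 regions called in CvP became 162 with no minimum RPKM, 5 with a minimum of 5 and 23 with 1 added to each RPKM. The 25 called in Epi became 3 with a minimum of 5, 42 and 11 with a minimum ratio of 2 and 5, 3 with 1 added to each RPKM, and 9 when the interval had to lie past the ratio. The 3 regions past the stricter call became 15 and 90 with a minimum CvP RPKM of 3 and 1. The median log2 ratio of 0.38 became 0.0505 with an RPKM of at least 1 in both libraries, 0.15 with zeros left out, 0.65 with RPKM rescaled to equal sums, 0.80 without regions in annotated exons, and −0.013 after division by the median ratio of the table, which turned its sign. Dividing by that ratio left 84 calls in CvP and 36 in Epi. The 0 regions within 20 kb of a named gene became 197 within 50 kb and 286 within 100 kb. The 161 regions in annotated exons became 96 when 50% of the region had to be covered and 71 for coding genes only. The 178 regions that matched a transcript elsewhere became 101 at 98% identity and 100 with 50% of the region aligned. The share of regions on the same side as the nearest gene could not be computed within 20 kb, where there were 0 regions. Other causes of these changes were not tested. Depth limits the faint regions, as 349 of the 455 regions reached 20 estimated reads in the 2 libraries together, and the intervals cover counting error only.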
